A study of Homo sapiens with 4 samples.

Results

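The integrated stress response and amino acid supply genes were chosen by name, with earlier results of these data known. They were 36 genes of 16376 in the deposited table, and all 36 had a row there. They cover the 4 eIF2 kinases, the alpha subunit of eIF2 that the kinases phosphorylate, 7 stress transcription factors, 6 feedback and stress effectors, 12 enzymes of amino acid and one-carbon synthesis and 6 amino acid transporters. The cells were LASCPC-01, a line of neuroendocrine prostate cancer (NEPC) cells that was generated by combined expression of NMYC and activated AKT1 and is given as wild type in the labels. RNA was sequenced from cells treated with PBS, the vehicle, and from cells treated with fluoxetine, an antidepressant that blocks serotonin reuptake, with 2 libraries in each group. Fluoxetine was given at 5 µM for 48 h by the written protocol. The sample labels carry day 3 and no dose, and both fluoxetine titles hold the letters PP, which nothing explains. Nothing states that the libraries of a group came from separate cultures, so the p-values measure only the spread between these libraries, which may be technical.

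In the integrated stress response, kinases that sense different stresses phosphorylate eIF2 alpha. General translation then slows, while translation of the ATF4 messenger rises. The ATF4 protein, with its partners of the ATF and C/EBP families, raises transcription of amino acid transporters, of enzymes of asparagine, serine, glycine and proline synthesis, and of feedback genes that restore translation. Because ATF4 is controlled largely by translation, its mRNA level does not report its activity by itself, and the target genes are the usual transcript readout.

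Part of this transcription runs through a C/EBP-ATF response element in target promoters. The core TGATGNAA, on either strand, was searched in RefSeq promoter windows of GRCh38.p14 that reach from 250 bases before to 50 bases after each annotated start. Of the 36 genes, 27 had a window, and 7 of these 27 (25.9%) held the core, against 4.46% of all 27305 genes with a window. Among the 12964 genes of the FPKM values with a window, 3.12% held it. The set was chosen by name and includes known ATF4 targets, so a higher share was likely beforehand and is no result of these data. By window the share was 7 of 43 (16.3%) for the set and 3.62% over all 35097 windows. Genes of the set with a match include some lower under fluoxetine, some whose groups overlapped, and SLC3A2, which was higher in both fluoxetine libraries. All 7 matched stretches are shown, whatever the level of their genes. They are printed 5′ to 3′ on the strand of the gene, with the core or its reverse complement in capitals.

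CHAC1: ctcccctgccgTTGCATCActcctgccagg
ATF3: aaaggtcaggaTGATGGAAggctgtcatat
CEBPG: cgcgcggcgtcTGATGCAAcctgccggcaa
ASNS: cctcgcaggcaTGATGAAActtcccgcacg
SLC1A5: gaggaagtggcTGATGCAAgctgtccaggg
SLC7A1: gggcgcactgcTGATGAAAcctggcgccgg
SLC3A2: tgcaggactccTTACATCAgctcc

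The CHAC1 stretch lies at chr15:40953251-40953280, with the core beginning at position -209 from the RefSeq start. The ATF3 stretch lies at chr1:212565205-212565234, outside every GENCODE 29 gene, and the CEBPG stretch at chr19:33374060-33374089, in an intron of CEBPG. The ASNS stretch, at chr7:97872458-97872487 on the minus strand, begins its core at position -68. The SLC1A5 stretch is at chr19:46784893-46784922 and the SLC7A1 stretch at chr13:29595663-29595692, both on the minus strand. The SLC3A2 stretch is at chr11:62881725-62881748. The cores of SLC7A1 and SLC3A2 begin after the RefSeq start, at positions 8 and 38, while those of the other genes lie before it. The stretches of CHAC1, ASNS, SLC1A5, SLC7A1 and SLC3A2 overlap an exon of the same gene in GENCODE 29. A match is only a run of letters in a window, and its occupancy was not measured.

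The values were FPKM, in which a gene's fragments are divided by gene length and library depth, so levels can be compared between genes. The FPKM proved to be whole multiples of the worth of 1 read, and the reads were solved for 16000 of the 16080 genes above 0, the 36 among them. The depth used by the authors came to between 32873603 and 34831389 reads per library. Replicates had a Pearson r across genes, which are not independent replicates, of 0.993 for PBS and 0.994 for fluoxetine, and their reads differed by more than sampling noise (chi-square per degree of freedom 8.31 and 10.1). Fluoxetine replicate 1 stood apart in gene length. Its deviations from the gene means correlated with log2 length at -0.284 across genes, against 0.046 to 0.188 in the other libraries. Of the neuroendocrine markers reported, NCAM1, INSM1 and ENO2 were above 2 FPKM in every library, whereas SYP was at most 0.629 FPKM, and CHGA and CHGB at most 0.0886 FPKM, with CHGA at 0 in PBS replicate 2. The leukocyte genes PTPRC and CD3E were at most 0.0318 FPKM.

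Of the 36 genes, 34 had a mean of at least 0.1 FPKM and were tested with limma on log2(FPKM + 0.1), a scale that understates changes of low genes. No gene of the set passed an adjusted p of 0.05 over all 12663 genes tested. Over all genes 30 did, which is 0.237%. In bulk RNA, fewer cells of a type and less RNA per cell cannot be told apart. The lowest adjusted p in the set was 0.329, for CHAC1. At an unadjusted p under 0.05, 5 genes were lower (14.7%, against 4.79% of all genes) and 1 was higher (2.94%, against 3.73%). These shares only describe the set, which was chosen with earlier results of these data known. The lower ones were VLDLR, CHAC1, ATF3, SESN2 and CEBPG, and the higher one was SLC3A2. Without PBS replicate 2, the count at an unadjusted p under 0.05 was 2 in place of 6.

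**Figure D1:**
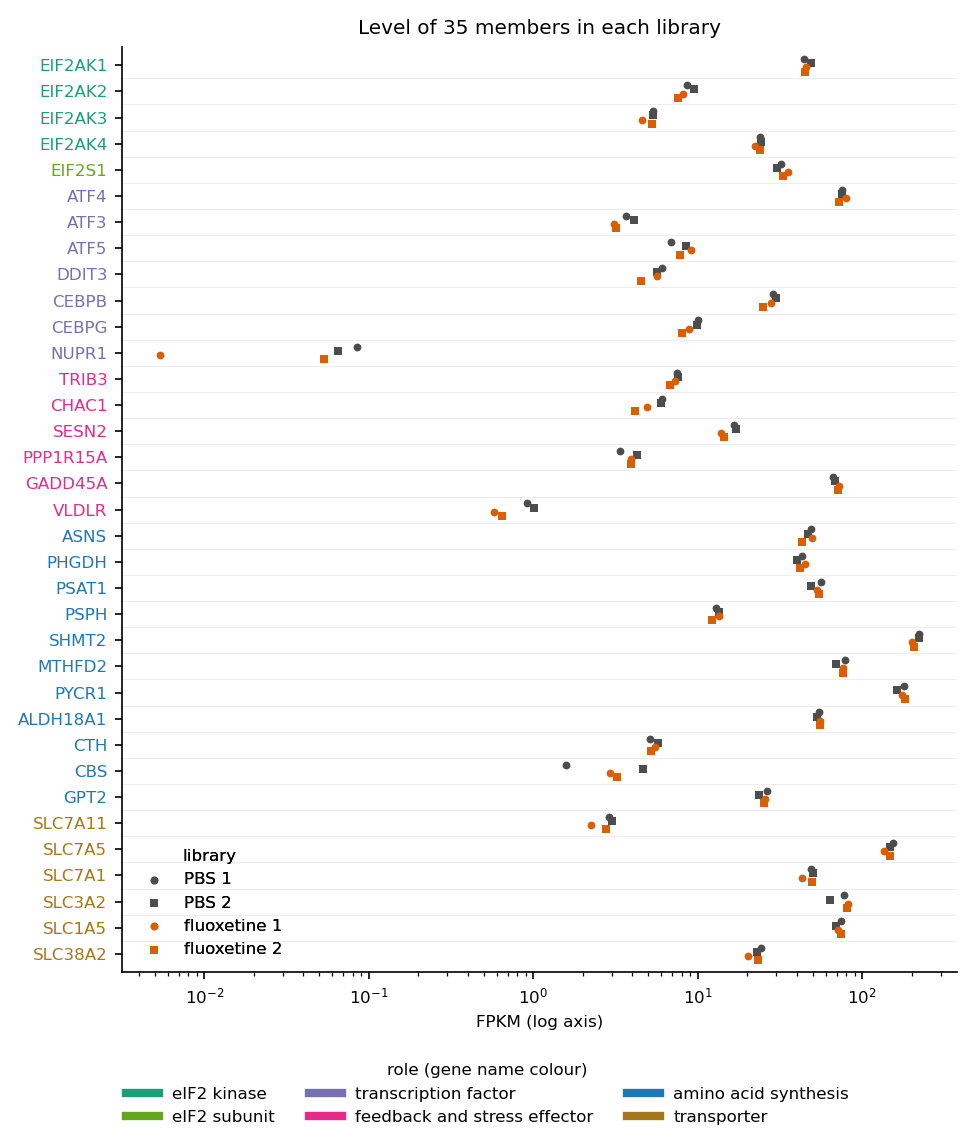
FPKM of 35 genes in each of the 4 libraries, on a log axis, with gene names coloured by role. ALDH1L2, with 1 read in all, is left out. Most genes have their 4 points close together, while NUPR1, CBS and VLDLR spread more widely.

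In 13 of the 34 genes (38.2%) both fluoxetine libraries lay below both PBS libraries, against 24.8% of all genes tested. In 4 genes (11.8%) both lay above, against 16.7% of all genes. After rescaling to TPM the counts were 16 below and 2 above, where all genes gave 32.1% and 10.7%. The median log2 fold change of the set was -0.04, with single values between -0.58 and 0.21, and the median of all genes was -0.02. For 31 of the 34 genes, the 95% interval of the difference lay within 1.5-fold in either direction. The 3 others were VLDLR, CHAC1 and CBS. For 33 of the 34 it lay within 2-fold, VLDLR being the exception.

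**Figure D2:**
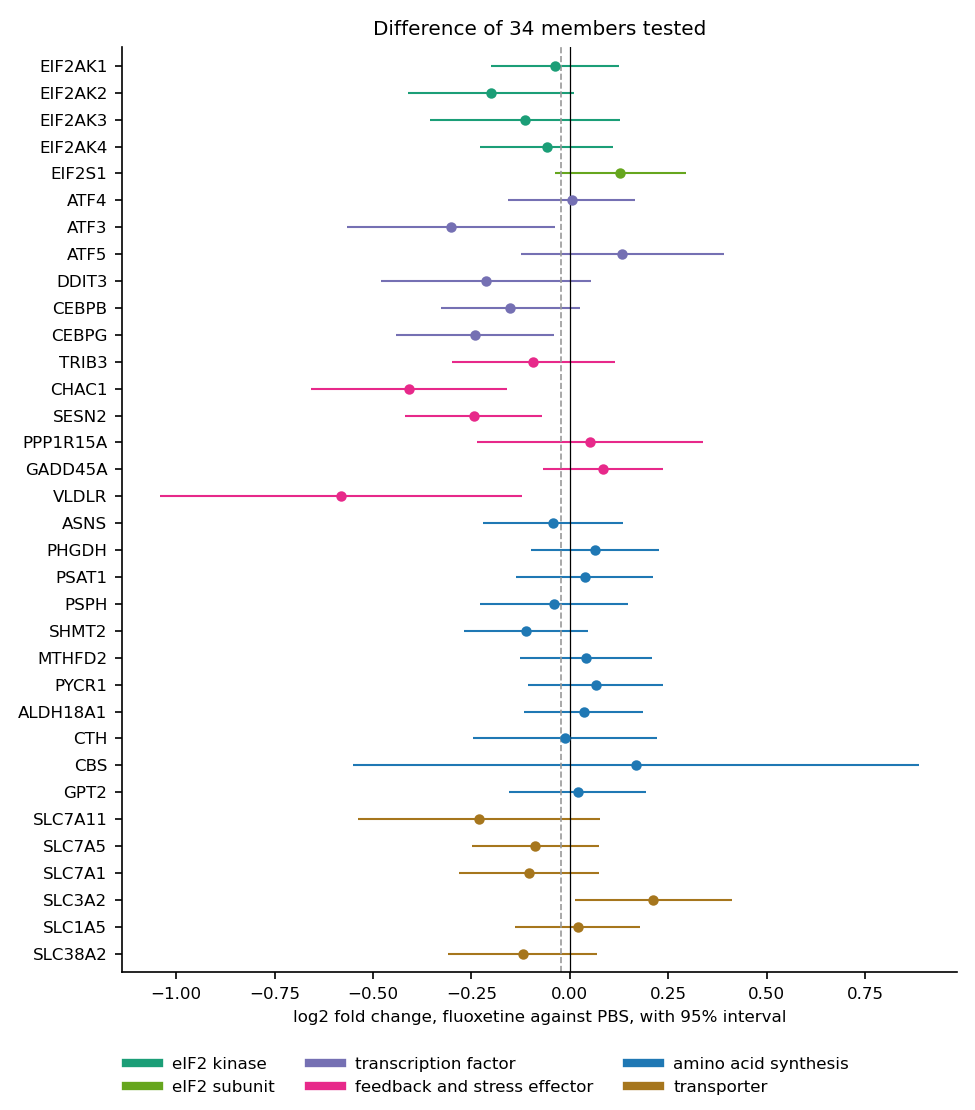
Log2 fold change of the 34 tested genes, fluoxetine against PBS, with its 95% interval from limma. The solid line marks 0 and the dashed line the median of all genes, -0.02. The intervals of VLDLR, CHAC1, ATF3, SESN2 and CEBPG lie below 0 and that of SLC3A2 lies above it, and none of these 6 passed the adjusted test.

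The eIF2 kinases start the response. HRI (EIF2AK1), which senses heme shortage and mitochondrial stress, had the highest level, at 44.5 and 48.8 FPKM with PBS and 45.8 and 45.0 FPKM with fluoxetine. GCN2 (EIF2AK4), the sensor of uncharged tRNA, had 23.8 and 24.4 FPKM with PBS and 22.2 and 24.1 FPKM with fluoxetine. The groups overlapped for both kinases. PKR (EIF2AK2), which binds double-stranded RNA, had 8.57 and 9.50 FPKM with PBS and 8.14 and 7.55 FPKM with fluoxetine, and differed by -0.20 in log2 fold change (standard error 0.10, limma adjusted p = 0.586). PERK (EIF2AK3), the kinase of the endoplasmic reticulum, had 5.37 and 5.35 FPKM with PBS and 4.604 and 5.31 FPKM with fluoxetine. For PKR and PERK the groups did not overlap and fluoxetine was lower, but for PERK the second fluoxetine library differed from the PBS libraries by under 0.1 FPKM. The kinase target eIF2 alpha (EIF2S1) had 32.4 and 30.2 FPKM with PBS and 35.2 and 33.1 FPKM with fluoxetine, which is 0.13 in log2 fold change (95% interval -0.04 to 0.29, adjusted p = 0.624). The phosphorylation of eIF2 alpha cannot be read from RNA.

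ATF4, the central factor of the response, spans 39519695 to 39522685 of chromosome 22 (GRCh38; gene positions here and below are those of GENCODE 29). Its level was 76.0 FPKM in each PBS library, and fluoxetine gave 80.0 and 72.7 FPKM, on either side of that level. limma gave 0.0048 in log2 fold change (standard error 0.07, adjusted p = 0.991), with a 95% interval from -0.16 to 0.17. ATF4 had 19268 to 21470 reads per library, but the interval does not use them. It comes from 2 libraries in each group and a variance moderated over all genes tested. The sign of the ATF4 log2 fold change was negative after rescaling to TPM and after quantile normalization.

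Among the factors that ATF4 induces or pairs with, ATF3 on chromosome 1 (212565334 to 212620777) had 3.69 and 4.11 FPKM with PBS and 3.09 and 3.20 FPKM with fluoxetine, means that differ by -19.4%. The groups did not overlap, and limma gave -0.30 on the log2 scale (standard error 0.12) with an adjusted p of 0.538. CEBPG, a C/EBP factor that dimerizes with ATF4, had 10.1 and 9.86 FPKM with PBS and 8.84 and 8.02 FPKM with fluoxetine, without overlap, at -0.24 in log2 fold change (standard error 0.09, adjusted p = 0.535). It lies on chromosome 19 from 33373330 to 33382686. CHOP (DDIT3), a factor tied to cell death under lasting stress, had 6.10 and 5.67 FPKM with PBS and 5.66 and 4.52 FPKM with fluoxetine. Its groups were separated by under 0.01 FPKM, and the 95% interval of its log2 fold change ran from -0.48 to 0.05.

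CEBPB had 28.8 and 30.0 FPKM with PBS and 28.1 and 25.0 FPKM with fluoxetine, and a 95% interval of the log2 fold change from -0.33 to 0.03. ATF5, a factor of the mitochondrial stress response that is also controlled by translation, overlapped between the groups, at 6.88 and 8.50 FPKM against 9.08 and 7.77 FPKM. NUPR1, a small stress-induced chromatin protein, was below the level for testing. The PBS libraries held 15 and 12 of its reads and the fluoxetine libraries 1 and 10, so its difference rests mostly on 1 library. Of the 6 factors tested, 4 had lower fluoxetine values without overlap (66.7%, against 24.8% of all genes), and 0 passed the adjusted test in limma.

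**Figure D3:**
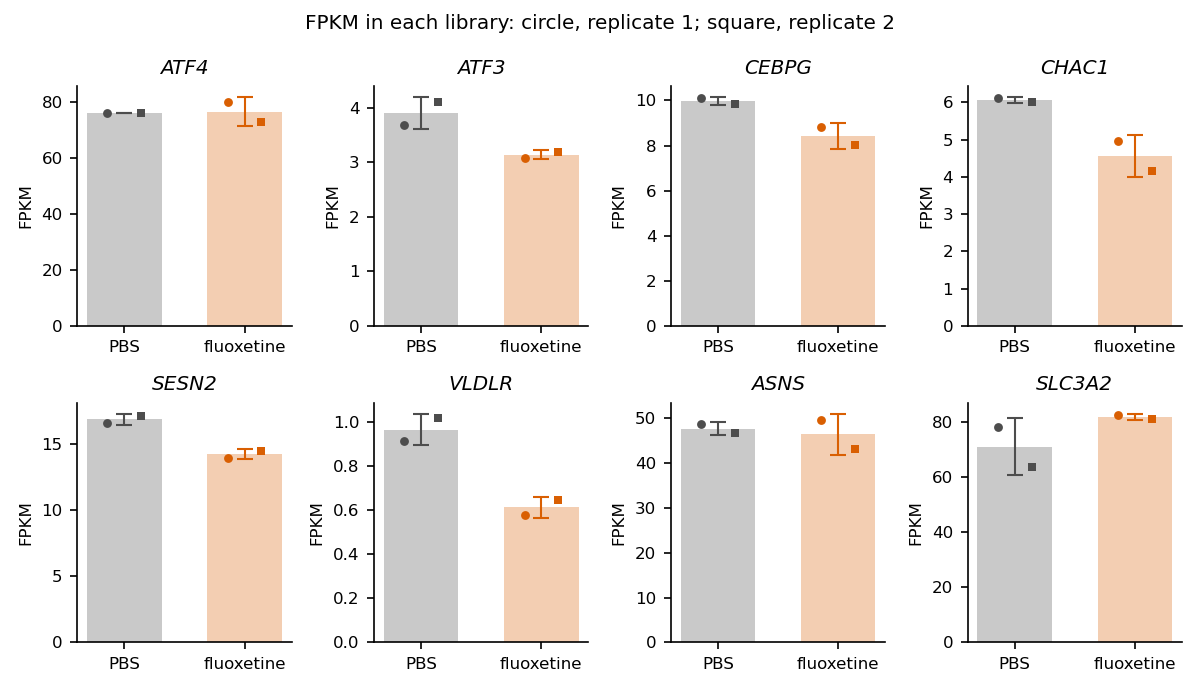
FPKM of 8 genes in the PBS libraries (grey) and the fluoxetine libraries (orange). Bars show the mean, error bars the SD (n = 2), circles replicate 1 and squares replicate 2. ATF3, CEBPG, CHAC1, SESN2 and VLDLR are lower in both fluoxetine libraries, ATF4 and ASNS overlap, and SLC3A2 is higher in both.

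The effectors VLDLR and CHAC1 had the lowest log2 fold changes of the set. CHAC1, an enzyme that degrades glutathione and a sensitive target of ATF4, lies on chromosome 15 from 40952962 to 40956519. It had 6.11 and 6.01 FPKM (748 and 777 reads) with PBS and 4.96 and 4.16 FPKM (642 and 539 reads) with fluoxetine. The means were 6.06 ± 0.0757 FPKM (SD, n = 2) and 4.56 ± 0.564 FPKM (SD, n = 2), and the log2 fold change was -0.41 (95% interval -0.66 to -0.16). Its adjusted p ranged from 0.156 to 0.989 over the alternatives. Leaving out single libraries gave values between -0.53 and -0.28.

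Sestrin 2 (SESN2), which senses leucine and restrains mTORC1, lies on chromosome 1 from 28259527 to 28282491. It had 16.5 and 17.1 FPKM with PBS and 13.9 and 14.5 FPKM with fluoxetine, or -0.24 in log2 fold change (standard error 0.08, adjusted p = 0.462). The gap between the groups was wider than the distance between the replicates in each. VLDLR, the very low density lipoprotein receptor, is a known ATF4 target and lies on chromosome 9 from 2621834 to 2660053. It had 0.918 and 1.02 FPKM (278 and 326 reads) with PBS and 0.580 and 0.648 FPKM (186 and 208 reads) with fluoxetine. On the log2 scale this was the lowest value of the set, -0.58 (standard error 0.21, limma adjusted p = 0.522). A pseudocount of 1, close to or above the level of the gene, shrinks it to -0.29. It was -0.65 with a pseudocount of 0.01 and -0.66 with voom on the solved reads.

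The other effectors were closer between the groups. TRIB3, a pseudokinase that restrains ATF4 and AKT, had 7.46 and 7.55 FPKM with PBS and 7.25 and 6.81 FPKM with fluoxetine, or -0.09 in log2 fold change (95% interval -0.30 to 0.11). GADD34 (PPP1R15A), the phosphatase subunit that reverses eIF2 alpha phosphorylation, had 3.38 and 4.30 FPKM with PBS, on either side of 3.95 and 3.96 FPKM with fluoxetine. GADD45A, a growth arrest gene, had 66.5 and 68.9 FPKM with PBS and 72.6 and 71.1 FPKM with fluoxetine. Its fitted difference of 0.09 on the log2 scale became -0.03 once the gene length trend of each library was removed.

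Removal of the length trend was an alternative added once the data had been seen. It gave log2 fold changes of -0.39 for CHAC1, -0.48 for VLDLR, -0.31 for ATF3, -0.23 for SESN2 and -0.21 for CEBPG. PKR moved from -0.20 to -0.09 and ATF4 from 0.0048 to 0.08. With that trend removed, fluoxetine was lower without overlap in 10 of the 34 genes, against 19.96% of all genes, and higher in 3, against 19.5%.

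**Figure D4:**
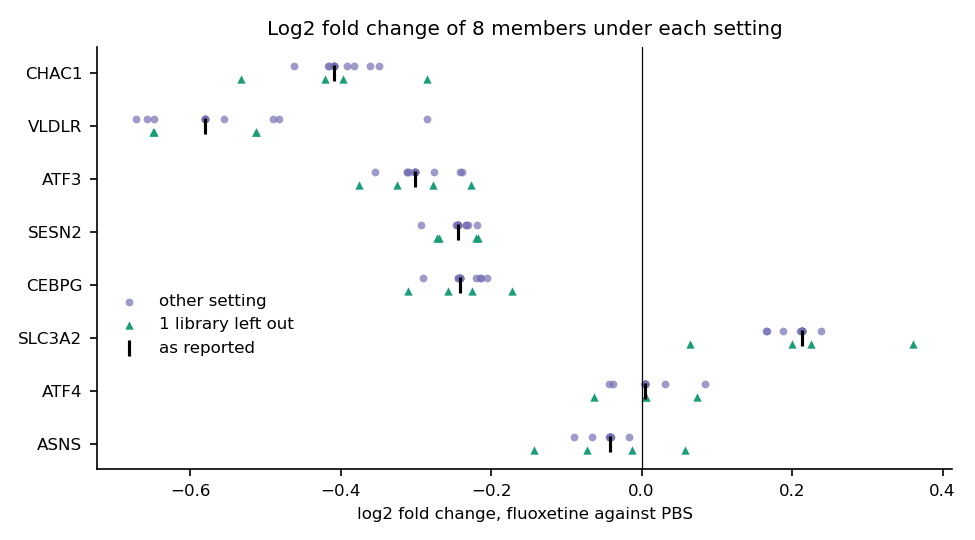
Log2 fold change of 8 genes as reported (black bar), under other settings of the processing (circles) and with 1 library left out (triangles). CHAC1, VLDLR, ATF3, SESN2 and CEBPG stay below 0 and SLC3A2 above 0 in every setting drawn, while ATF4 and ASNS fall on either side of 0.

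The synthesis enzymes ranged from SHMT2 and PYCR1, the most abundant genes of the set, to ALDH1L2, which was nearly absent. The mitochondrial serine hydroxymethyltransferase SHMT2, which makes glycine and one-carbon units, had 221 and 222 FPKM with PBS and 203 and 208 FPKM with fluoxetine. The groups did not overlap, with a difference of -0.11 in log2 fold change (95% interval -0.27 to 0.05, adjusted p = 0.648). PYCR1, the last enzyme of proline synthesis, had 180 and 163 FPKM with PBS and 176 and 183 FPKM with fluoxetine. ALDH18A1, the first enzyme of proline synthesis from glutamate, had 54.8 and 53.2 FPKM with PBS and 55.6 and 55.1 FPKM with fluoxetine. Both its fluoxetine libraries were higher, by 2.49% in the means, and the sign changed after rescaling to TPM.

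Asparagine synthetase (ASNS), a classical target of ATF4, lies on chromosome 7 from 97852118 to 97872542. It had 48.8 and 46.8 FPKM with PBS, between 49.7 and 43.2 FPKM with fluoxetine. The difference was -0.04 in log2 fold change (standard error 0.08, adjusted p = 0.897). The 3 enzymes of serine synthesis overlapped between the groups as well. PHGDH, which takes glycolytic 3-phosphoglycerate into the pathway, had 43.0 and 40.5 FPKM with PBS and 45.1 and 42.2 FPKM with fluoxetine. PSAT1, the transaminase of the second step, had 56.1 and 49.2 FPKM against 53.0 and 54.8 FPKM. PSPH, the phosphatase of the last step, had 12.9 and 13.5 FPKM against 13.4 and 12.3 FPKM. The widest of their 3 intervals, that of PSPH, ran from -0.23 to 0.15 in log2 fold change.

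MTHFD2, the mitochondrial folate enzyme next to SHMT2, had 78.5 and 69.9 FPKM with PBS and 76.3 and 76.1 FPKM with fluoxetine. GPT2, the mitochondrial alanine transaminase, had 26.5 and 23.8 FPKM against 25.5 and 25.3 FPKM. In both genes the PBS libraries enclosed the fluoxetine libraries. ALDH1L2, the mitochondrial formyltetrahydrofolate dehydrogenase, had 0 reads in 3 libraries and 1 read in fluoxetine replicate 1, under a floor of 3 reads, and no fold is given. Cystathionine gamma-lyase (CTH), which makes cysteine, had 5.11 and 5.71 FPKM with PBS and 5.48 and 5.23 FPKM with fluoxetine.

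CBS, the enzyme before CTH in cysteine synthesis, had 1.59 and 4.65 FPKM with PBS and 2.92 and 3.25 FPKM with fluoxetine. Its 2 PBS libraries held 181 and 559 reads, the widest replicate ratio of the 34 genes tested, and the log2 fold change of 0.17 had a 95% interval from -0.55 to 0.89. Without PBS replicate 1 it was -0.58. The means on the FPKM scale differ by -1.03%, so the sign depends on the scale. The table lists a near-identical copy, CBSL, at 28.96 and 23.7 FPKM with PBS and 21.3 and 31.9 FPKM with fluoxetine, and reads of the 2 copies can be exchanged. Together the copies took 3903 and 3781 reads in the PBS libraries, against 3245 and 4735 in the fluoxetine libraries, so the PBS libraries differ much less in the sum than in CBS, and the groups overlap. Of the 11 enzymes tested, 9 overlapped between the groups (81.8%, against 58.4% of all genes) and 0 passed the adjusted test in limma, with a median log2 fold change of 0.04.

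Most of the transporters were also close. SLC3A2 (CD98), the heavy chain that pairs with SLC7A5 and SLC7A11, lies on chromosome 11 from 62856102 to 62888875. It had 78.2 and 63.6 FPKM (6272 and 5396 reads) with PBS and 82.5 and 81.0 FPKM (7006 and 6885 reads) with fluoxetine. limma put the difference at 0.21 in log2 fold change (standard error 0.09, adjusted p = 0.555). The gap between the PBS replicates exceeded the gap between the groups, and without PBS replicate 2 the log2 fold change was 0.06.

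The light chain SLC7A5 (LAT1), which imports leucine and other large neutral amino acids, had 153 and 148 FPKM with PBS and 137 and 147 FPKM with fluoxetine. Its groups were separated by less than 1 FPKM, and its 95% interval ran from -0.25 to 0.08. SLC7A11 (xCT), the cystine importer, was the lowest transporter, at 2.90 and 3.01 FPKM with PBS and 2.25 and 2.78 FPKM with fluoxetine, at -0.23 in log2 fold change (95% interval -0.54 to 0.08). The heavy chain was thus at 0.21 and its light chains at -0.09 and -0.23 on the log2 fold change scale, each with an adjusted p above 0.5, and differences between them were not tested.

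The glutamine importer SLC1A5 (ASCT2) had 74.8 and 69.5 FPKM with PBS, enclosing 71.7 and 74.6 FPKM with fluoxetine. The arginine and lysine importer SLC7A1 had 49.1 and 50.3 FPKM with PBS and 43.0 and 49.8 FPKM with fluoxetine. SLC38A2 (SNAT2), which rises when cells lack amino acids, had 24.4 and 22.9 FPKM against 20.2 and 23.4 FPKM. For both SLC7A1 and SLC38A2, fluoxetine replicate 1 was the lowest library and fluoxetine replicate 2 fell between the PBS libraries.

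The genes with the C/EBP-ATF core printed above did not share 1 pattern. CHAC1, ATF3 and CEBPG were lower in both fluoxetine libraries, with log2 fold changes of -0.41, -0.30 and -0.24. ASNS, SLC1A5 and SLC7A1 overlapped between the groups, at -0.04, 0.02 and -0.10. SLC3A2 was higher in both, at 0.21. Over all genes tested, 24.8% were lower without overlap, 16.7% were higher and 58.4% overlapped. None of the 7 passed the adjusted test, and differences among them were not tested.

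A further list of 48 genes of the same pathways, which are not part of the set, was counted in the same fit. It was written with earlier results of these data known. Of its 47 tested genes 1 was called (2.13%, against 0.237% of all genes), lower in fluoxetine, and 0 were called higher. Fluoxetine was lower without overlap in 16 of them (34.04%) and higher in 9 (19.1%), against 24.8% and 16.7% of all genes. The median log2 fold change was -0.03.

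The called gene was STC2, a secreted glycoprotein induced by stress of the endoplasmic reticulum and by low oxygen. It lies on chromosome 5 from 173314713 to 173329503 and fell from 24.7 and 22.9 FPKM with PBS to 17.3 and 17.5 FPKM with fluoxetine. The drop was -0.45 in log2 fold change (standard error 0.08, limma adjusted p = 0.0464). The adjusted p was above 0.05 in 10 of the 16 alternatives, and at most 0.434.

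The other 4 of the 5 largest differences among genes of at least 1 FPKM did not pass the test, and that of GDF15 was larger than that of STC2. GDF15, a stress hormone, had 3.82 and 5.004 FPKM with PBS and 3.23 and 2.84 FPKM with fluoxetine, at -0.52 in log2 fold change (standard error 0.14, adjusted p = 0.329). DDIT4 (REDD1), an mTORC1 inhibitor induced by stress, had 136 and 107 FPKM with PBS and 95.8 and 100.2 FPKM with fluoxetine, at -0.30. Its PBS libraries were farther apart than its group means. PYCR3, the cytosolic proline enzyme, had 6.24 and 5.89 FPKM with PBS and 7.55 and 7.36 FPKM with fluoxetine, at 0.29. PRODH, which degrades proline, had 0.887 and 1.13 FPKM with PBS and 1.44 and 1.33 FPKM with fluoxetine, at 0.43. FGF21, a hormone induced through ATF4 and named only after its values were seen, was covered by 9 and 8 reads in the PBS libraries and by 2 and 0 in the fluoxetine libraries.

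Of the roles in this list, the 5 subunits of eIF2B, the exchange factor that phosphorylated eIF2 inhibits, had log2 fold changes from 0.02 to 0.21, with 0 called in limma. The 2 further eIF2 subunits, EIF2S2 and EIF2S3, were at 0.0060 and 0.013. The 4 genes of the unfolded protein response, ERN1, XBP1, ATF6 and HERPUD1, lay between -0.20 and 0.07. For XBP1 the fluoxetine libraries, at 93.5 and 88.8 FPKM, exceeded the PBS libraries, at 88.7 and 85.3 FPKM, by less than their own distance. Among the 12 stress targets, STC2 included, 10 values were negative and 2 positive, with a median of -0.21. At an unadjusted limma p under 0.05, 4 of these 12 were lower (33.3%, against 4.79% of all genes). They were STC2, GDF15, DDIT4 and FGF21, the last with few reads. Because the list was written with earlier results of these data known, this share is no test of the pathway. All 6 genes of eIF2 regulation were negative, from -0.18 to -0.01. So were the 5 transporters tested, from -0.19 to -0.04. The median of all genes was itself -0.02. With the length trend removed, GCN1 was at 0.08 and DELE1 at 0.02, while the other genes of these roles stayed negative. Leaving out single libraries gave values up to 0.12 for GCN1, 0.03 for DELE1 and QRICH1 and 0.02 for SLC43A1. The rest of both roles stayed negative there. Of the 13 amino acid enzymes, 5 were negative and 8 positive. Differences between the roles were not tested.

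**Figure D5:**
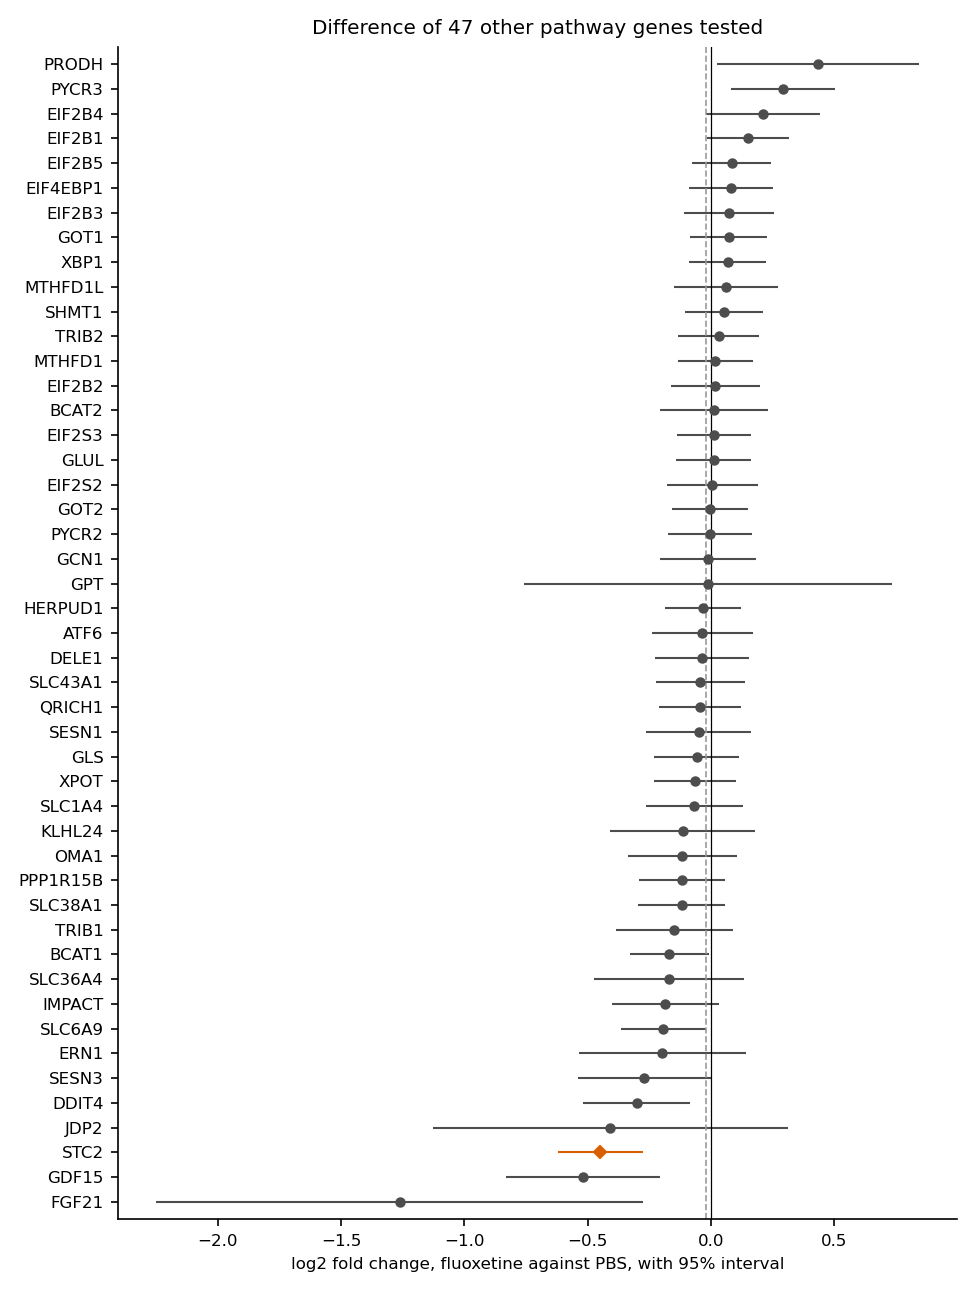
Log2 fold change of the 47 tested genes of the further list, fluoxetine against PBS, with its 95% interval, sorted by value. The dashed line is the median of all genes, -0.02. STC2 (orange diamond, -0.45) is the 1 gene with an adjusted p under 0.05, and FGF21, with the widest interval, rests on 19 reads in all.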

How the data were processed

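Reads of 150 bases were paired. Per the labels, the submitters' processing notes name fastp, HISAT2, HTSeq and GRCh38, with no versions or roles, and the annotation is not given in the sources used here. The labels name a stranded TruSeq kit and the study's methods a VAHTS kit. The authors deposited FPKM, 1 column per library, and all 4 columns matched 1 sample each. The study's own test models counts, so limma 3.58.1 in R 4.3.3 (eBayes with a variance trend, Benjamini-Hochberg adjustment) was run here on log2(FPKM + 0.1) for genes with a mean of at least 0.1 FPKM. A two-sided exact permutation test of 2 libraries against 2 cannot go below p = 0.33. Whole reads were solved from the FPKM within a tolerance of 0.004, taking the smallest numbers for which length also came out in whole bases, with the depth set from 69 genes whose length matched GENCODE 29. True reads could be multiples of these. Tables and figures used Python 3.11.15, pandas 2.3.3 and matplotlib 3.10.9. Every gene of the set was named. Of the further list, the text names each called gene and the 5 of at least 1 FPKM with the largest absolute log2 fold change. FGF21, GCN1, DELE1, QRICH1, SLC43A1 and the eIF2 and unfolded protein response genes of that list were named outside this rule. Members and lists were chosen with earlier results of these data known. Some marker genes are not reported here.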

Additional observations from a re-analysis of the deposited data

How the results depend on the processing

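Recomputed under 15 listed alternatives and 1 added after seeing the data, no gene of the set was called by limma in any, and the smallest adjusted p was 0.156 (CHAC1, with the replicate number as a block). At an unadjusted p under 0.05 the set had 6 genes as reported (8.51% of all genes passed), 4 with quantile normalization (7.39%), 8 with TPM (8.77%) and with the length trend removed (7.90%), 7 with voom (10.5%), 5 or 6 under the other settings, and 2 to 7 with 1 library left out (4.10% to 11.996%). Of 543 values of single genes, 515 had the same sign. Among the 543 are settings that alter only the filter, the variance moderation or the block. There the log2 fold change stays the same by construction, so its sign could not change. NUPR1, ALDH1L2 and FGF21 had few reads each, which limits what can be said of them. Over all genes, 30 were called as reported, 64 with the block, 51 with voom, 16 after quantile normalization, 2 to 12 with 1 library left out, and 0 without the filter or without the variance trend. Same-numbered libraries shared little beyond the number (correlation of deviations 0.036), and the block changed no call in either list.

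The count of 1 in the further list became 0 with a pseudocount of 0.01, under quantile normalization or median centring, without either the filter or the variance trend, after removal of the length trend, and with any library left out (0 to 0). After rescaling to TPM the median of the set was -0.090, against -0.07 for all genes. Genes higher in both fluoxetine libraries numbered 2 with TPM (10.7% of all genes) and 2 with quantile normalization (19.3%), and genes lower in both 16 (32.1%) and 11 (19.8%). The cause of these shifts was not tested. Signs changed with TPM for ATF4 (-0.043), PSAT1 (-0.0099), MTHFD2 (-0.0064), ALDH18A1 (-0.012), GPT2 (-0.028) and SLC1A5 (-0.028). With quantile normalization they changed for ATF4 (-0.038), MTHFD2 (-0.0038), CTH (0.042) and SLC1A5 (-0.020), with median centring for CTH (0.014), and with the length trend removed for GADD45A (-0.032). With 1 library left out, log2 fold changes that crossed 0 ranged from -0.064 to 0.073 for ATF4, -0.017 to 0.28 for ATF5, -0.12 to 0.22 for PPP1R15A, -0.58 to 0.91 for CBS, -0.10 to 0.028 for EIF2AK1, -0.057 to 0.13 for PSAT1, -0.043 to 0.13 for MTHFD2, -0.0085 to 0.14 for PYCR1, -0.091 to 0.067 for CTH, -0.057 to 0.097 for GPT2, -0.033 to 0.073 for SLC1A5, -0.21 to 0.0021 for SLC7A1, -0.14 to 0.057 for ASNS and -0.10 to 0.022 for PSPH.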
